A study of Mus musculus with 6 samples.

Results

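Lost PU.1 regions are the sites at which PU.1 was called in both uninduced libraries of a mouse myeloid progenitor line and no longer called after the factor was induced. They were found by merging the peaks of the 4 ChIP libraries into regions wherever peaks had at least 1 bp in common. A region was counted as lost when both uninduced lists had a peak in it and none of the 3 induced lists did, that is neither induced replicate nor the list the authors had merged from them. On the 19 autosomes 2709 regions met this rule, of 82810 regions in all and 80803 on autosomes. Members were thus selected on the presence and absence of peaks in these same libraries. The rule rests on called peaks, so a lost region is one where no peak passed the authors' threshold after induction, and PU.1 may still be bound there below it.

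The study mapped PU.1 in iBN cells, which the labels describe as granulocyte-macrophage progenitors with a PU.1-inducible system, kept in GM-CSF, a growth factor for myeloid progenitors. Induced cells were kept for 72 hours with doxycycline, a drug that switches on such a system, at 1000 ng per ml, and uninduced cells had none. Each condition had 2 ChIP libraries made with the same antibody against PU.1, and 1 merged list. The labels do not describe how the inducible system was built, how much PU.1 the uninduced cells already had, or whether replicates were separate cultures. The 2 input libraries were not analysed here.

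PU.1, the product of the Spi1 gene, is an ETS-family transcription factor that binds purine-rich DNA with a GGAA core and is needed for the macrophage, granulocyte and B-cell lineages. It can bind sites in closed chromatin and help to open them, and its dose steers the choice between myeloid fates. In progenitors such as these it acts beside other factors, among them members of the C/EBP family. ChIP-seq reports such sites as peaks whose score and width depend on signal, background and sequencing depth together.

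No p-value is given for lost regions. The rule itself fixes presence and absence in every library, an exact two-sided permutation test of 2 libraries against 2 cannot go below 0.333, and neighbouring regions are not replicates. Values are therefore set beside those of retained regions, which had a peak in all 4 libraries, within bands of the lower uninduced score or of both uninduced scores, and shares carry 95% Wilson intervals that cover counting error only. Read depth is unknown. The induced lists held 68076 and 57336 peaks and the uninduced lists 31960 and 42951, so the lost class was drawn from the shorter lists and checked against the longer ones.

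Of the autosomal regions with a peak in both uninduced lists, 23637 in number, 2709 were lost, a background share of 11.5%. A further 19127 (80.9%) were retained. Another 1561 (6.60%) had a peak in 1 induced library, 1129 of them in induced replicate 1 and 432 in induced replicate 2. The last 240 (1.02%) had a peak in the merged induced list alone and stood just outside the rule. Chromosome X held 196 regions of the lost pattern and chromosome Y held 1, and these were left out. With X and Y included, 2906 of 24146 regions of both uninduced lists had the lost pattern, against 2709 of 23637 on autosomes. The share was thus higher on the chromosomes left out than on autosomes, and the cause was not tested.

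Lost regions were weak peaks before induction. Their scores, the authors' own value per peak with a floor of 50, ran from 50 to 693.34 with a median of 73.6 in uninduced replicate 1, and from 50.02 to 330.07 with a median of 68.3 in uninduced replicate 2. The median lost peak stood above 29.9% of the peaks of replicate 1 and above 22.9% of those of replicate 2. For retained regions these positions were 67.1% and 74.4%. Only 479 lost regions (17.7%) reached the median score of the list of replicate 1, and 169 (6.24%) reached that of replicate 2. Low scores follow in part from the rule, since a weak site passes a threshold in fewer lists.

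The lower of the 2 uninduced scores was below 60 in 1222 lost regions (45.1%) and below 80 in 2313 (85.4%). It reached 100 in 143 of them (5.28%) and 150 in 24. The scores of both replicates were nearly unrelated in rank across the 2709 lost regions (Spearman's rho 0.17, a description over regions that share the same threshold in both libraries). The plot of scores in both uninduced libraries shows this as a cloud against both floors. For the 6772 retained regions with a lower score under 100 the rho was -0.22, a value that the cut at 100 can itself lower.

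**Figure D1:**
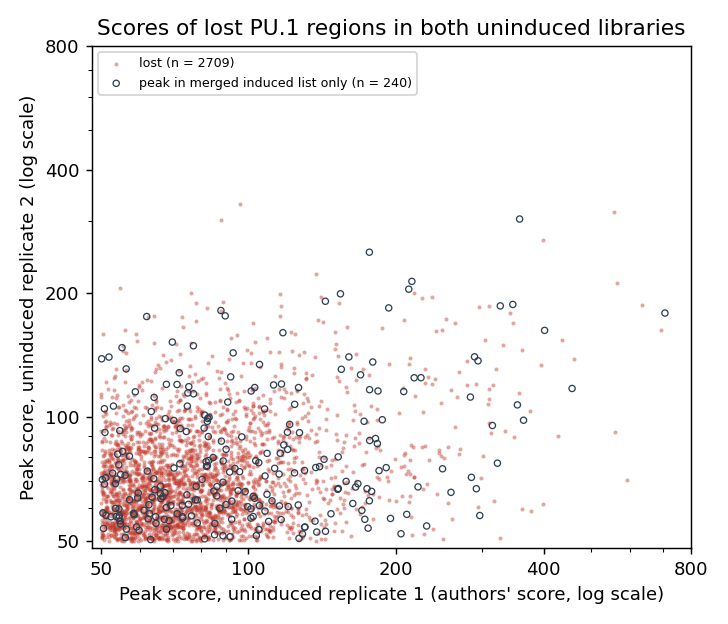
Peak score in uninduced replicate 1 (x axis, log scale) and uninduced replicate 2 (y axis, log scale) for each of the 2709 lost regions (red points) and the 240 regions with a peak in the merged induced list alone (open circles). Most points lie near the floor of 50 in both libraries, and 143 lost regions reached 100 in both.

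The merged uninduced list, another reading of the same libraries, held a peak in 2686 of the 2709 lost regions (99.2%). Its scores there had a median of 98.3, ran from 50.44 to 809.69 and were at least 100 in 1280 regions (47.7%). The merged list comes from the same libraries, so it is no independent support. The 23 lost regions without a merged uninduced peak include both of the widest ones.

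The share of uninduced regions that were lost was smaller at higher scores. With a lower score of 50 to 60, 1222 of 3543 regions were lost (34.5%, interval 32.9 to 36.1%), and with 60 to 70, 737 of 2662 (27.7%). It was 18.3% with scores of 70 to 80, 9.61% with 80 to 100, 3.18% with 100 to 150 and 0.927% with 150 to 200. Of 6965 regions with both scores at 200 or more, 4 were lost (0.0574%, interval 0.0223 to 0.148%). Even in the lowest band, 1818 regions (51.3%) were retained.

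**Figure D2:**
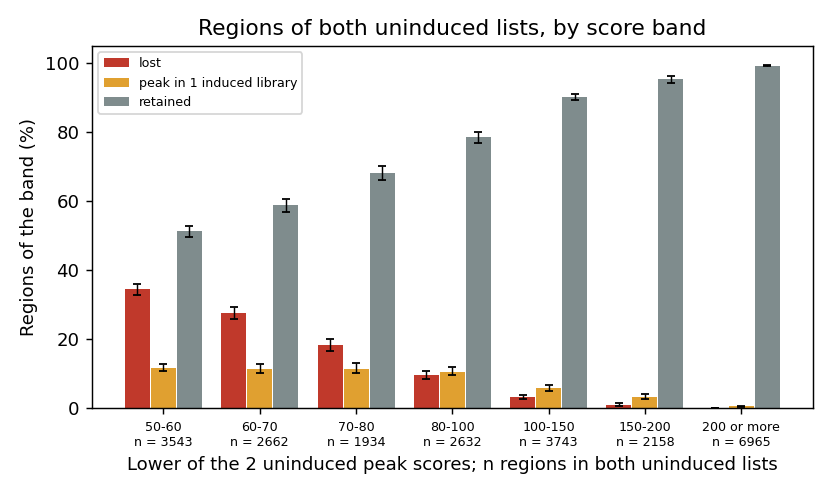
Share of autosomal regions of both uninduced lists (y axis, %) that were lost, had a peak in 1 induced library or were retained, by band of the lower uninduced score (x axis), with 95% Wilson intervals. Lost regions make up 34.5% of the lowest band and 0.0574% of the highest.

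Weak regions that were retained did not sit at the threshold after induction. In the band of 50 to 60 they had median scores of 253 and 162 in induced replicates 1 and 2, above the medians of those lists (164 and 140). Regions of that band with a peak in 1 induced library had median scores of 70.9 where that library was replicate 1 and 59.6 where it was replicate 2. Over all bands these medians were 77.0 and 62.6, and the 240 regions just outside the rule had a median merged induced score of 57.8.

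Within the same band the libraries differed in how lost and retained regions compared. In the band of 50 to 60, lost regions had a median of 59.6 in uninduced replicate 1, against 56.6 for retained regions. In uninduced replicate 2 lost regions had a median of 57.8 there, against 91.3 for retained regions. The gap within the list of replicate 2 was present in each band up to 200 (in the band of 80 to 100, 90.8 for lost and 132 for retained regions), whereas the medians in replicate 1 lay within 5 points of each other up to 150. The band fixes only the lower of the 2 scores, so the other was free to differ.

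Regions with both uninduced scores in the same narrow range were therefore also compared, a choice made after seeing the data. With both scores from 50 to 60 there were 416 regions, of which 223 (53.6%) were lost and 122 (29.3%) were retained. Their median scores were 55.0 for lost and 54.5 for retained regions in uninduced replicate 1, and 54.8 and 54.6 in replicate 2. In the merged uninduced list they still differed a little, at 71.5 for lost and 75.9 for retained regions. After induction these retained regions had medians of 157 and 102 in induced replicates 1 and 2. Unlike those of the band of 50 to 60 above, these lay below the medians of the induced lists (164 and 140). With both scores from 60 to 80, 405 of 827 regions (49.0%) were lost, and with both from 100 to 150, 60 of 777 (7.72%).

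The lost region with the highest lower score lay at chr10:63100339-63101468 (build mm9, counted from 1, as all positions here). It scored 558.01 and 315.51 in uninduced replicates 1 and 2 and 692.61 in the merged uninduced list, and its nearest retained region was 11.2 kb away. Another on that chromosome, chr10:22025840-22026730, scored 399.21 and 269.68, with the nearest peak of any induced list 22.6 kb away. The region chr11:8956727-8957660 scored 565.76 and 212.39. These were 3 of the 4 lost regions with both scores at 200 or more.

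Next by this rule came chr3:128972572-128973621 (217.29 and 200.21), and chr13:63205943-63207022 (237.24 and 196.46). They were followed by chr2:45867923-45868934 (225.81 and 194.5), and by chr15:63551324-63552396 (634.99 and 187.82). A further pair on chromosome 2 came after them: chr2:130456634-130457696 scored 309.53 and 186.71, and chr2:65319047-65320122 scored 294.86 and 185.89. The list of 10 closes with chr13:114423789-114424757 (341.28 and 179.16). All 10 had a peak in the merged uninduced list. A retained region lay within 10 kb of 3 of them. An induced peak lay 21 bp from the one on chromosome 15 and 22 bp from chr2:130456634-130457696. The nearest was 1.025 kb from chr13:114423789-114424757, 2.121 kb from the one on chromosome 11 and 2.385 kb from chr2:45867923-45868934. It was 2.449 kb from chr13:63205943-63207022 and 8.765 kb from the one on chromosome 3. For the rest of the 10 this distance was 11.0 to 68.3 kb. Of all 2709 lost regions, 727 (26.8%) had an induced peak within 10 kb.

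Some lost regions touched the edge of the rule. The closest to an induced peak lay at chr14:32344856-32345609, with scores of 61.79 and 96.72 in the uninduced replicates and an induced peak 9 bp away. The next lay at chr9:114058037-114058734 (55.01 and 87.76), 10 bp from an induced peak. In all, 84 lost regions (3.10%) had an induced peak within 1 kb, and the median distance was 32.5 kb.

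Just outside the rule, the region at chr16:37185869-37186927, had scores of 357.36 and 303.42 in the uninduced replicates but a merged induced peak of 59.52. That at chr14:26673278-26674303, scored 215.47 and 213.98 with a merged induced peak of 72.37, and that at chr8:36896044-36896979, scored 212.32 and 204.84 with one of 56.81. The lowest merged induced scores that kept a region out were 50.01 (chr18:11221620-11222795), 50.11 (chr10:51134190-51135054) and 50.13 (chr7:65794564-65795312). All 3 were at the floor of the score.

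Lost regions were narrow. Nearly all were simple, with 1 peak per uninduced library in 2708 of 2709 (99.96%), against 92.5% of retained regions. Retained regions were merged with induced peaks too, which can join several uninduced peaks into 1 region. This contrast may thus follow in part from the rule, and it was not matched for score. Median peak widths were 795 bp in uninduced replicate 1 and 700.0 bp in replicate 2, against 1025 and 1013 bp for peaks of retained regions. Over lost regions the score and width of a peak were weakly related in rank, with a Spearman's rho of 0.29 in replicate 1 and 0.11 in replicate 2. For retained regions with a lower score under 100 the rho was 0.26 in replicate 1 and 0.52 in replicate 2. Among peaks that scored 50 to 60 in replicate 1 itself, the median width was 752 bp for lost and 860.0 bp for retained regions. Among those that scored 50 to 60 in replicate 2 it was 692 bp for lost and 775 bp for retained regions. With own scores of 80 to 100 the medians were 812 bp for lost and 952 bp for retained regions in replicate 1, and 710.0 and 871 bp in replicate 2.

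Among regions with a lower score under 100, lost peaks were narrower in the median than retained ones on all 19 autosomes in both replicates. This contrast was not matched for a peak's own score, and retained regions scored higher in replicate 2 in each band of that range. Positions in both replicates were about as close in lost as in retained regions. The peak centres were a median of 60.5 bp apart in lost and 65.0 bp apart in retained regions of that score range, and the peaks had 75.2% and 79.4% of their joint length in common.

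A few lost regions were broad: 10 of the 2709 exceeded 1500 bp. The widest, at chr1:85096145-85103164, spanned 7020 bp with scores of 266.43 and 111.94 and had no peak in the merged uninduced list. Neither had the next, 2654 bp at chr4:145704030-145706683 (105.88 and 90.27). The other 3 of the widest 5 lay at chr6:108407133-108409046 (309.7 and 116.99), chr10:121809425-121811116 (150.03 and 146.6), and chr7:147567469-147569151 (207.6 and 75.98), and each had a merged peak.

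Lost regions lay farther from retained ones than retained regions lay from each other. Their median distance, edge to edge, to the nearest retained region was 140.1 kb, with quartiles of 38.9 and 374 kb, and 31 of them (1.14%) lay within 1 kb. Within 10 kb lay 247 (9.12%, interval 8.09 to 10.3%), while 11.9% of the autosomal span outside retained regions is as near. Retained regions lay a median of 11.7 kb from another retained region, and 46.1% had one within 10 kb.

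The difference was present within ranges of score. Among regions with a lower score under 100, the median distance was 146 kb for lost and 13.2 kb for retained regions, and 8.57% and 42.9% lay within 10 kb. In the band of 50 to 60 the medians were 159.9 kb for lost and 12.5 kb for retained regions, and in that of 100 to 150 they were 48.6 and 12.8 kb. Those bands leave retained regions with higher scores in uninduced replicate 2. With both scores from 50 to 60 the median distance was 175 kb for lost and 12.7 kb for retained regions, and 6.73% and 40.2% lay within 10 kb. With both from 80 to 100 it was 222 kb for lost and 13.5 kb for retained regions, and with both from 100 to 150 it was 38.5 and 12.6 kb. On each of the 19 autosomes lost regions under 100 lay farther away in the median than retained ones, by 6.25 to 21.0 times. The rule drops every region that touches an induced peak, and regions called only after induction were denser near retained ones. It can thus itself raise the distance of lost regions, on every autosome and in every score range, by an amount that was not tested.

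At low scores, regions between both classes lay between them in distance. Under a lower score of 100, the median distance to a retained region was 38.9 kb for those with a peak in the merged induced list alone (206 regions) and 27.4 kb for those with a peak in 1 induced library (1227 regions). Within 10 kb of a retained region lay 20.9% and 28.3% of them. In the band of 100 to 150 the medians were 48.6 kb for lost regions and 28.7 kb for those with a peak in 1 induced library. In that of 150 to 200 the order was reversed, at 25.6 kb (20 lost regions) and 38.5 kb.

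**Figure D3:**
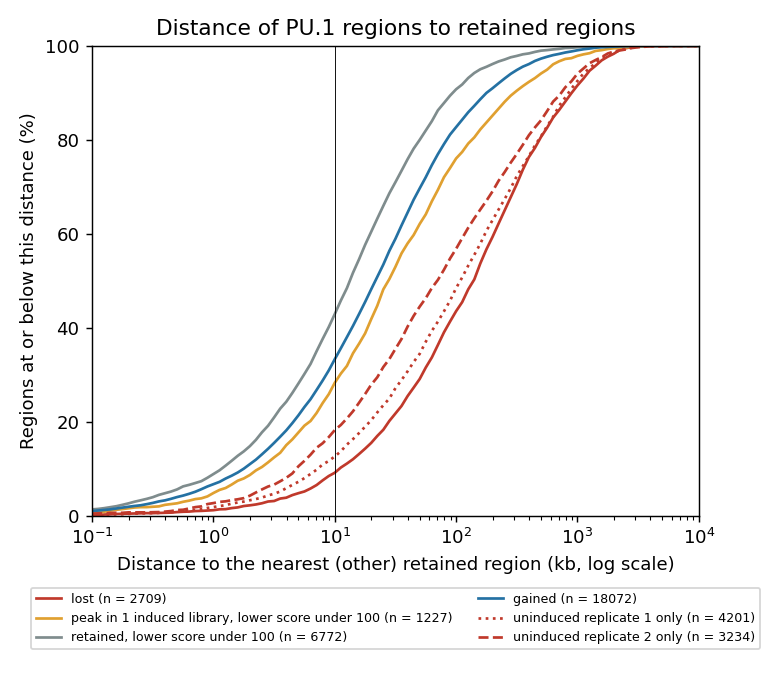
Cumulative share of regions (y axis, %) by distance to the nearest retained region (x axis, kb, log scale; for retained regions, to another one), with a line at 10 kb. The lost regions form the rightmost curve with a median of 140.1 kb, next to the peaks found in uninduced replicate 1 only, and the retained regions of low score form the leftmost with 13.2 kb.

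Per length of sequence, the density of lost regions in the lists as deposited varied by less than that of gained ones with distance from a retained region. The autosomal span from the first to the last region came to 2383 Mb outside retained regions, of which 11.9% lay within 10 kb of a retained region and 8.41% beyond 1000 kb. Lost regions numbered 0.872 per Mb within 10 kb, 1.02 at 10 to 50 kb, 1.31 at 50 to 200 kb, 1.18 at 200 to 1000 kb and 1.14 beyond. Their density within 10 kb was 0.766 times that beyond 1000 kb. The rule drops every region that touches a peak of an induced list, and gained regions were denser near retained ones. It can thus itself lower the density of lost regions there, by an amount that was not tested. The ratio of 0.766 depended on the lists and on the overlap required. It was 9.76 with scores of at least 100, 5.50 with lists of equal length and the merged induced list shortened too, 1.90 with an overlap of 50% and 1.28 without uninduced replicate 1, so that lost regions were then denser near retained ones. Under the other 7 alternatives it lay between 0.629 and 0.961. Gained regions, called in both induced libraries and absent from both uninduced ones, were far denser near retained sites, with 21.2 per Mb within 10 kb and 0.833 beyond 1000 kb, a ratio of 25.5. Retained regions stood at 31.1 and 0.269 per Mb by distance to another retained region. Their values divide by the length of sequence near any retained region, so they cannot be set directly beside those of the other classes.

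Regions found in a single uninduced library came nearest to this pattern among the classes compared. Those of uninduced replicate 1 alone, 4201 in number, had 1.87 per Mb within 10 kb and 1.57 beyond 1000 kb, a ratio of 1.19, and those of uninduced replicate 2 alone (3234) had 2.08 and 0.953, a ratio of 2.18. Single-library regions of the induced samples did not share it: the 12443 of induced replicate 1 alone stood at a ratio of 26.9 and the 3194 of induced replicate 2 alone at 13.1. The regions of both uninduced and 1 induced library had a ratio of 11.1. The single-library classes were not filtered on the merged lists, and sequence that cannot be mapped was not subtracted from the span.

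**Figure D4:**
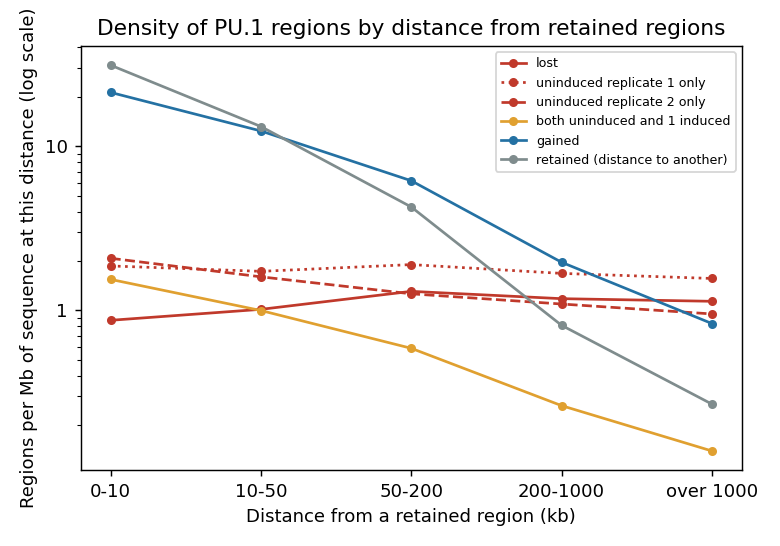
Regions per Mb of autosomal sequence (y axis, log scale) by distance from a retained region (x axis, kb), for lost, gained and retained regions, regions of 1 uninduced library and regions of both uninduced and 1 induced library. Retained regions are counted by distance to another one, so their line is not directly comparable with the others. The line of lost regions runs between 0.872 and 1.31 per Mb, whereas that of gained regions falls to 0.833 per Mb beyond 1000 kb.

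The most distant lost region lay at chr14:4316695-4317551, 3881 kb from a retained region and 649 kb from any induced peak, with scores of 69.65 and 81.06. It was followed by chr4:77663683-77664498 (50.26 and 55.24), 3536 kb from a retained region, and chr2:98151259-98152138 (72.54 and 58.08), at 3339 kb. Chromosome 4, 77237979 to 77238773 (77.81 and 58.26), stood at 3111 kb and chr12:48962455-48963266 (81.54 and 60.58), at 2924 kb. All 5 were weak, and each also had a peak in the merged uninduced list. Beyond 1000 kb from any retained region lay 228 lost regions (8.42%), and 8.41% of the span is as far away.

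Most lost regions had no other lost region close by. The nearest other lost region was a median of 248 kb away, and 437 of 2709 (16.1%, interval 14.8 to 17.6%) had one within 50 kb. A lost region lay within 50 kb of fewer regions of other classes, namely 7.78% of retained, 7.32% of gained, 12.3% of those with a peak in 1 induced library and 12.6% of those of uninduced replicate 1 alone. Retained regions, which are far more numerous, had another retained region within 50 kb in 82.6%. Lost regions within 50 kb of the next one formed 207 chains, of which 186 had 2 members, 19 had 3 and 2 had 4. The other 2272 stood alone. At the wider scale of 1 Mb windows, 792 of the 2709 lost regions were alone in their window, and the others shared it with at least 1 more. There was no lost region in 897 of 2426 windows, 1 in 792, 2 in 446 and at most 7 in a window, which 4 windows reached.

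The longest chains held 4 weak regions each. At chr1:79965927-80046206, the scores were 59.19 to 131.82 in uninduced replicate 1 and 55.34 to 73.18 in replicate 2, and the nearest retained region was 54.4 kb from a member. At chr7:20975065-21043435, they were 71.09 to 91.5 and 53.28 to 66.07, and no retained region lay within 453 kb. Chains of 3 followed at chr1:165705185-165739783, at chr5:12476636-12545544, and at chr6:82579546-82666335, the first 3 by position of the 19 chains of that size. No member of these 5 chains reached 100 in both uninduced libraries.

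The share of uninduced regions that were lost ranged among autosomes around the background of 11.5%. It was lowest on chromosome 11, with 96 of 1560 regions (6.15%, interval 5.07 to 7.46%), and on chromosome 19, with 51 of 736 (6.93%, 5.31 to 9.00%). It was highest on chromosome 3, with 188 of 1204 (15.6%, 13.7 to 17.8%), and on chromosome 1, with 242 of 1666 (14.5%, 12.9 to 16.3%). Among regions with a lower score under 80 the order of these 4 held, with 16.8% on chromosome 11, 19.4% on chromosome 19, 36.5% on chromosome 3 and 34.4% on chromosome 1. On chromosome 3 the segment from 85 to 120 Mb had 28 lost of 358 regions (7.82%), against 160 of 846 (18.9%) on the rest of it. These shares were not matched for score. The segment was chosen with earlier results of these libraries known. Gained regions made up 568 of its 1596 regions (35.6%), against 520 of 2770 (18.8%) on the rest of the chromosome. On all autosomes they made up 18072 of 80803 regions.

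**Figure D5:**
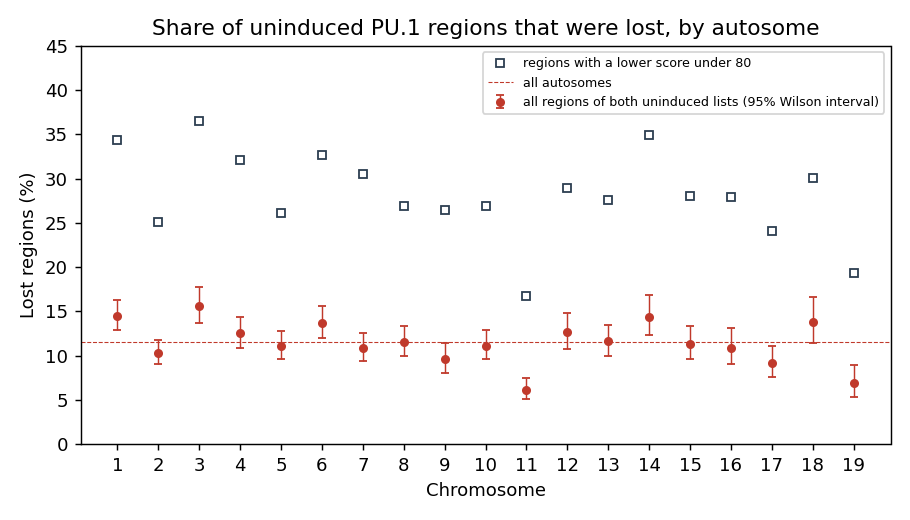
Share of regions of both uninduced lists that were lost (y axis, %) on each autosome (x axis), for all such regions (red points with 95% Wilson intervals) and for those with a lower score under 80 (open squares), with a dashed line at the background of 11.5%. Chromosomes 11 and 19 lie lowest in both.

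Several of these numbers depend on the lists used and on the overlap required. With peaks scoring at least 100 in every list, 488 of 12866 regions of both uninduced lists were lost (3.79%). With replicate lists of equal length it was 1313 of 20177 (6.51%), or 4215 of 20177 (20.9%) when the merged induced list was also shortened. With 1 uninduced library the count rose, as a single list then sufficed. It was 5639 of 40441 regions (13.9%) without replicate 1 and 6669 of 30342 (22.0%) without replicate 2. The median distance of lost regions fell to 68.6 kb with scores of at least 100 (20.5 kb for retained regions of 100 to 150), to 54.3 kb with the shortened merged list (15.1 kb for weak retained regions), to 83.8 kb with an overlap of 50% of both peaks (15.9 kb) and to 68.2 kb without uninduced replicate 1 (8.74 kb). In the last 3 of these settings the share of lost regions within 10 kb of a retained one was 19.3, 17.2 and 18.5%, above the 9.12% given here, and that of weak retained regions was 39.7, 38.3 and 53.6%. Lost regions were the more distant class under each of the 11 alternatives, by 3.34 to 11.1 times. Each alternative still drops regions that overlap an induced peak by its own setting, so the part of this distance due to the rule was not tested. The share with another lost region within 50 kb moved with the number of lost regions, between 6.15% with scores of at least 100 and 29.0% without uninduced replicate 2. With scores of at least 100, chromosomes 11 and 3 no longer stood apart, at 3.13% and 3.39% lost.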

How the data were processed

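The 6 deposited peak lists of PU.1 ChIP-seq were used, from 2 induced and 2 uninduced libraries and 1 merged list per condition, grouped by sample titles. Trim Galore, Bowtie, MACS 1.4.1 and mouse build mm9 are named in the submitters' processing notes. Neither the control used for peak calling nor the way of merging is given in the sources used here. The deposited score is 1 value per peak, at least 50, on a scale that is not stated. It served to describe and band peaks within a list; the lower of the 2 uninduced scores set the bands and the order of named regions.

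Regions, distances and counts were computed with Python 3.11.15, NumPy 2.4.6, SciPy 1.17.1 and pandas 2.3.3, and drawn with matplotlib 3.10.9. In a region with several peaks of a library the best-scoring one gave score and width. The code was tested on simulated lists. The members, comparisons and named regions (the 10 with the highest lower score, 5 longest chains, 5 widest, 5 farthest from a retained region, 3 closest to an induced peak, and 3 of each kind just outside the rule) were chosen with earlier results of these data known. The comparison with single-library regions, the windows of 1 Mb, the density by distance and the ranges of both scores were added after seeing the data. Gene, GC and motif context was not analysed, because the reference tables at hand are of another build than mm9, so no gene is named and no sequence is shown. The alternatives were a stricter overlap, a higher score, lists of equal length, a gap of 1 kb to induced peaks, other uses of the merged lists, other distances, chromosomes X and Y, and leaving out each library.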

Additional observations from a re-analysis of the deposited data

How the results depend on the processing

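No paired analysis was possible because the results come from no test. Over 85 recomputed values, 43 stayed within their interval, spread or 1.5 times and 42 did not; the cause was not tested except where the setting itself fixes it, as fewer or shorter lists do. The number of lost regions was 488 with scores of at least 100 (3.79% of the regions of both uninduced lists in that setting). It was 1313 (6.51%) with lists of equal length (31960 peaks). It was 4215 (20.9%) with the merged list shortened too, an alternative chosen after seeing the data. Leaving out each library gave 2823 to 6669, or 11.9 to 22.0% of the regions of the uninduced lists used. In these 3 settings the median scores were 171, 79.1 and 103 in uninduced replicate 1 and 129, 87.3 and 101.4 in replicate 2, and with an overlap of 50% they were 77.8 and 72.9. Without a library they were 68.8 to 74.2 in replicate 1 and 64.7 to 68.4 in replicate 2. The median widths were 945 and 802 bp with scores of at least 100 and 895 and 792 bp with the merged list shortened.

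The share of lost regions within 10 kb of a retained one was 17.2% with an overlap of 50%, 13.1% with scores of at least 100, 7.54% with lists of equal length, 19.3% with the merged list shortened, 7.70% at 1 kb or more from induced peaks and 10.4% when 1 induced peak sufficed for retained. It was 2.18% within 2 kb, 29.0% within 50 kb, and 9.70 to 18.5% without a library. The share with another lost region within 50 kb was 21.5, 6.15, 8.30 and 24.9% in the first 4 settings, 2.66% within 10 kb, 43.7% within 200 kb, and 16.7 to 29.0% without a library. The share lost on chromosome 11 was 9.50, 3.13 and 3.63% with an overlap of 50%, scores of at least 100 and equal lists, and on chromosome 3 it was 20.0, 3.39 and 7.94%. With scores of at least 100 both chromosomes were thus nearly level.

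Depth is unknown, and a site just under the score of 50 in the induced lists cannot be told from one without PU.1.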
